A study of Homo sapiens with 6 samples.

Results

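MicroRNA host genes are genes whose long RNA contains one or more microRNA hairpins. The genes described here are the rows of a gene count table whose symbol is MIR, then letters or digits, then HG, with no minimum level, and 55 of the 58735 rows of the table met that rule. The RNA came from the human cell line T47D, an estrogen receptor-positive luminal breast cancer line in long use. Libraries of 3 control samples (titled CK) were compared with 3 libraries of cells under an experimental treatment (titled CQ), called exposed below. No label names the treatment: fine particulate matter (PM2.5) is read here from the title of the series and from the RNA protocol, which gives 48 h of exposure for all samples. The labels give no dose. All 6 libraries are of 1 unmodified line, so they describe neither a tissue nor other breast cancer cells. The replicates are called biological, but nothing says that they came from separate cultures, and the p-values then measure only the spread between these samples.

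A microRNA gene is first copied into a long primary transcript. In the nucleus the enzyme Drosha and its partner DGCR8 crop a hairpin out of that RNA, exportin-5 carries the hairpin to the cytoplasm, Dicer cuts it to a short duplex, and an Argonaute protein keeps one strand. The loaded strand finds messenger RNAs mainly through its seed, bases 2 to 8 counted from the 5′ end. The libraries measured the long RNA of the host genes and not the mature microRNAs. In bulk RNA, fewer cells that make a transcript and less of it per cell cannot be told apart.

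The mature sequences below are those of the hosts on which the results turn, from RefSeq (GRCh38.p14), 5′ to 3′, with the seed in capitals. The first 5 share the let-7 seed, GAGGUAG, and came from 4 hosts whose RNA was counted: let-7a-5p and let-7b-5p from MIRLET7BHG, let-7c-5p from MIR99AHG, miR-4500 from MIR4500HG and miR-4458 from MIR4458HG. The next 4 are from the other hairpins of the hosts that fell, 1 arm of each: miR-99a-5p and miR-125b-5p from MIR99AHG, miR-210-3p from MIR210HG and miR-548x-3p from MIR548XHG. The last 4 belong to hosts that did not pass the test, the 2 most abundant (MIR34AHG and MIR29B2CHG) and a host of an epithelial microRNA pair (MIR200CHG).
hsa-let-7a-5p: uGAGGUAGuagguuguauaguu
hsa-let-7b-5p: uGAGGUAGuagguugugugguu
hsa-let-7c-5p: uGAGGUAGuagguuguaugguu
hsa-miR-4500: uGAGGUAGuaguuucuu
hsa-miR-4458: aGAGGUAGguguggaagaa
hsa-miR-99a-5p: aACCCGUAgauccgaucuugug
hsa-miR-125b-5p: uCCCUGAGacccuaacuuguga
hsa-miR-210-3p: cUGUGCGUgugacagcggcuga
hsa-miR-548x-3p: uAAAAACUgcaauuacuuuc
hsa-miR-34a-5p: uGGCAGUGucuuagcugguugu
hsa-miR-29c-3p: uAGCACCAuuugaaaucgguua
hsa-miR-200c-3p: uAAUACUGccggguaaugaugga
hsa-miR-141-3p: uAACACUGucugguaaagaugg
Counted from the 5′ end, let-7b-5p differs from let-7a-5p by A17G and A19G, and let-7c-5p differs from it by A19G alone, all outside the seed. Mature sequences were compared for 81 of the 84 microRNA rows that lie inside the hosts, some with 1 arm only. Of their seeds, 6 were found in more than 1 host, and the let-7 seed was found in the most, 5 hosts. The fifth, MIR100HG, had no count in any library.

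The libraries held 30970218 to 36878525 counts each. Luminal markers were all present: the 9 genes checked had group means of 67.1 to 8154 CPM, the counts scaled to a common TMM-adjusted library size,, and their sum ran from 19210 to 21080 CPM in control libraries and from 8121 to 10135 in exposed ones. Most of that sum was KRT8 and KRT19, at 8154 and 7504 CPM in control libraries. Of the 9, 6 fell (66.7%, against 22.1% lower among all tested genes). GATA3, EPCAM and CDH1 were not called (log2 fold changes 0.04, 0.02 and 0.08). Of 13 markers of blood, endothelial and stromal cells, 5 passed the count filter and none was without a count. Their sum was 69.2 to 78.2 CPM in control libraries and 78.5 to 82.3 in exposed ones, most of it COL1A1. The part of these shifts in any result below was not tested.

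Most host genes were scarce. Of the 55, 36 had at least 1 count and 19 had none in any library, for which 3 counts set an upper limit of 0.0804 to 0.0969 CPM per library, covering counting error only. The count filter left 20 host genes for testing, with totals of 56 to 3040 counts over the 6 libraries. Another 16 had counts but fell under it, with at most 40 counts each. The summed CPM of the 55 genes was 90.4, 87.9 and 86.9 in control libraries and 76.5, 74.3 and 79.1 in exposed libraries. The groups did not overlap, as for 51.9% of all tested genes taken singly. The sum is weighted to abundant hosts, among them MIR210HG (means 11.7 and 6.19 CPM) and MIR99AHG (7.92 and 5.08), while MIRLET7BHG went the other way (3.95 and 6.29). It does not show a fall of the hosts as a set.

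After exposure 1 host gene rose and 4 fell, while 15 of the 20 tested did not pass edgeR's quasi-likelihood test (Benjamini-Hochberg adjusted p under 0.05). MIRLET7BHG rose. MIR210HG, MIR99AHG, MIR4500HG and MIR548XHG fell. The 25% called stands beside 43.9% of all 17337 tested genes, 29.9% of the 2386 tested genes of long non-coding types, and 32.8% of the 9049 tested genes no more abundant than the most abundant host. By direction, 21.8% of all tested genes were higher and 22.1% lower, and among long non-coding types 8.51% were higher and 21.4% lower. The CPM ranges of the groups did not overlap for 5 of the 20, against 51.9% of all tested genes. The median log2 fold change of the 20 was -0.29, beside -0.02 over all tested genes and -0.2 over long non-coding types, and 15 of the 20 lay below 0 (51.8% of all tested genes did).

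**Figure D1:**
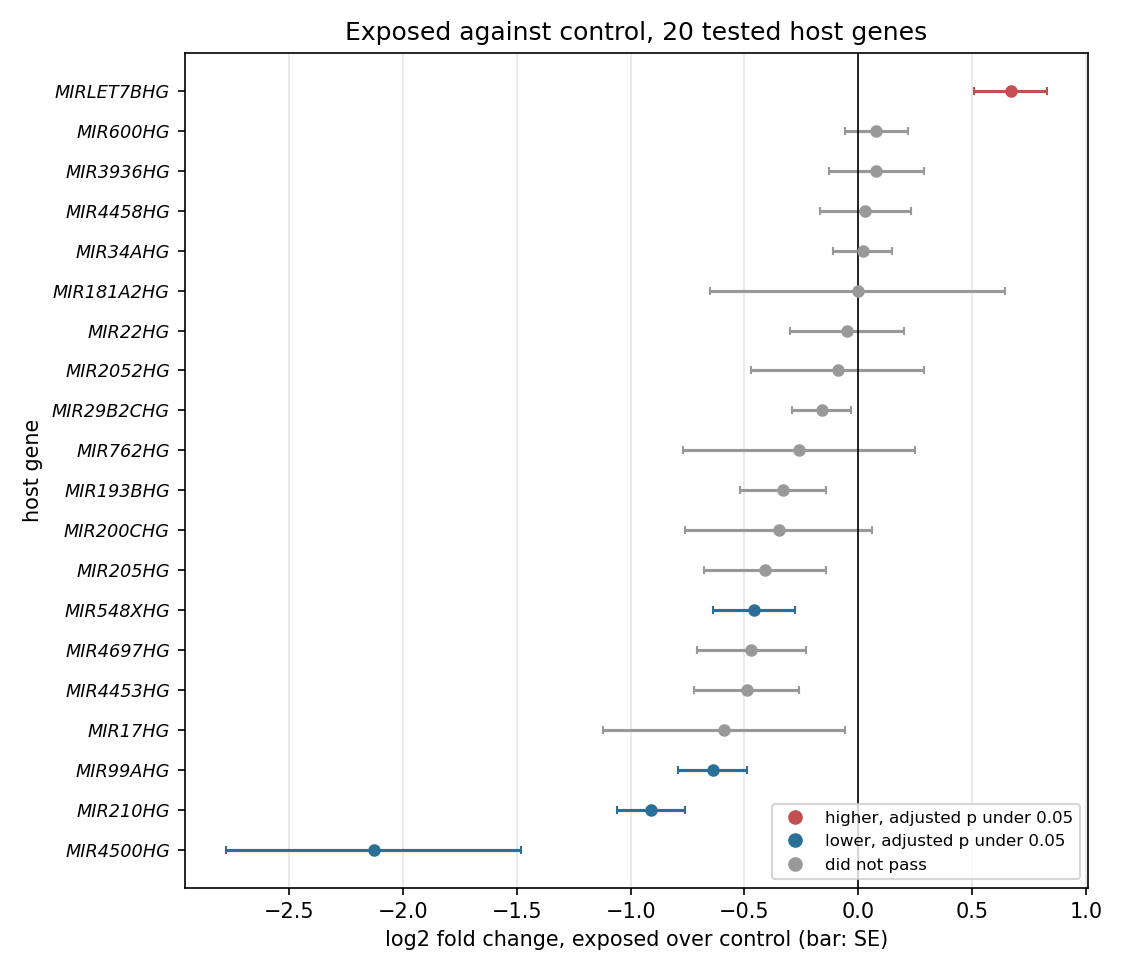
Log2 fold change (exposed minus control) of the 20 tested host genes, with bars of 1 SE from edgeR and colour for the call. MIRLET7BHG is the only called gene on the higher side, at 0.67, and the 4 called lower run from -0.46 for MIR548XHG to -2.13 for MIR4500HG, whose bar is the widest of the 5.

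The hosts of the let-7 seed went in both directions. let-7 microRNAs restrain growth and pluripotency genes such as the RAS genes, HMGA2 and LIN28. MIRLET7BHG (ENSG00000197182, chromosome 22, 46053869 to 46113928, plus strand, GRCh38) was counted at 3.51, 4.06 and 4.28 CPM in control libraries and at 6.51, 6.72 and 5.63 CPM in exposed libraries. Every exposed library lay above every control library. The gene rose 1.59-fold, from 3.95 ± 0.396 to 6.29 ± 0.578 CPM (SD, n = 3), a log2 fold change of 0.67 ± 0.16 (SE) with an edgeR adjusted p of 0.0012. Its 4 hairpins are MIR3619, in an intron of all 4 annotated transcripts, and MIRLET7A3, MIR4763 and MIRLET7B, each in an exon of 1 of the 4.

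MIR99AHG (ENSG00000215386, chromosome 21, 15928296 to 16645065, plus strand) spans 717 kb and carries MIR99A, MIRLET7C and MIR125B2. miR-99a and miR-125b are best known for targets in growth factor signalling and differentiation. It was counted at 7.15, 8.26 and 8.34 CPM in control libraries and at 5.83, 4.88 and 4.52 CPM in exposed libraries, with no overlap. The gene fell 1.56-fold, from 7.92 ± 0.664 to 5.08 ± 0.677 CPM (n = 3), a log2 fold change of -0.64 ± 0.15 with an edgeR adjusted p of 0.00083. MIR99A and MIRLET7C lie in introns of 13 of its 21 annotated transcripts and MIR125B2 in introns of 14, with none in an exon.

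MIR4500HG (ENSG00000228824, chromosome 13, 87427214 to 87671259, minus strand) had few reads: 26, 12 and 11 counts in control libraries and 3, 5 and 2 in exposed libraries. All exposed counts lay below all control counts, and control replicate 1 held more than the other controls together. Its level fell from 0.448 ± 0.216 to 0.102 ± 0.0543 CPM (n = 3), a log2 fold change of -2.13 ± 0.65 with an edgeR adjusted p of 0.0078. Without control replicate 1 the log2 fold change was -1.66 and the edgeR adjusted p 0.10, so that call rested on 1 library. MIR4458HG (ENSG00000247516, chromosome 5, 8450743 to 8463095, plus strand) was not called, at 3.05, 3.34 and 3.48 CPM in control libraries and 4.21, 2.68 and 3.16 in exposed libraries, with a log2 fold change of 0.03 ± 0.20 and an edgeR adjusted p of 0.93. The groups overlapped, with exposed replicate 1 highest and exposed replicate 2 lowest.

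**Figure D2:**
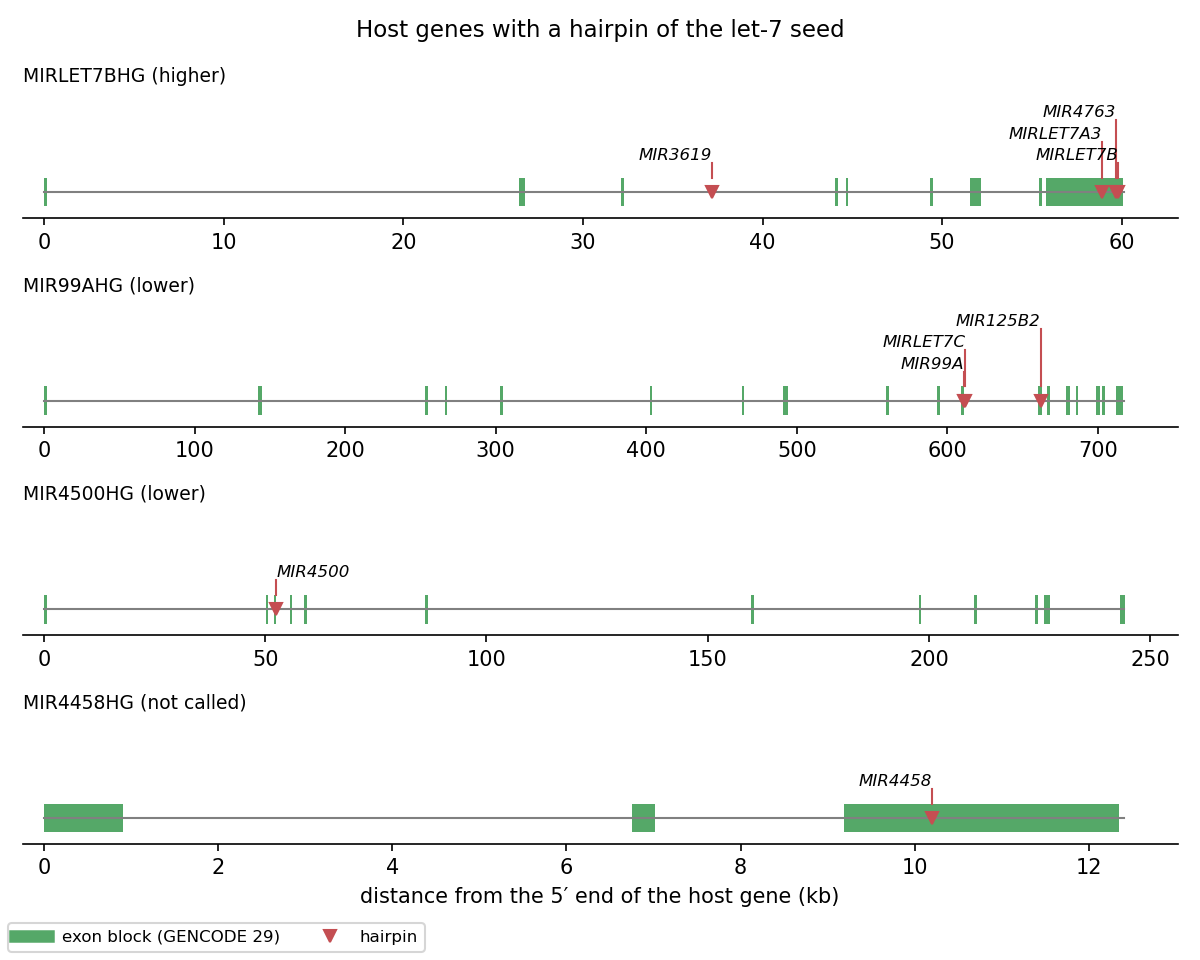
Exon blocks and microRNA hairpins of the 4 counted hosts of the let-7 seed, drawn in kb from each gene's start along its own strand, each gene on its own scale; the narrowest exons are drawn wider than to scale so that they show. MIRLET7A3 and MIRLET7B sit near the end of MIRLET7BHG at 58.9 and 59.8 kb, and MIRLET7C sits 612 kb into MIR99AHG.

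MIR210HG hosts miR-210, the microRNA most widely known as a target of hypoxia-inducible factors. The gene (ENSG00000247095, chromosome 11, 565660 to 568457, minus strand) was counted at 11.5, 11.5 and 12.1 CPM in control libraries and at 7.18, 4.52 and 6.88 CPM in exposed libraries. The control values were close together, and all exposed values lay below them, exposed replicate 2 lowest. It fell 1.88-fold, from 11.7 ± 0.344 to 6.19 ± 1.46 CPM (n = 3), a log2 fold change of -0.91 ± 0.15 with an edgeR adjusted p of 5.9e-06. The MIR210 hairpin lies in an intron of all 4 annotated transcripts, and the row of the hairpin itself held 5, 3 and 12 counts in control libraries and 3, 2 and 8 in exposed libraries.

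MIR548XHG (ENSG00000224141, chromosome 21, 18561265 to 18760003, minus strand) has its nearer edge 1.92 Mb beyond the end of MIR99AHG and hosts a member of the large miR-548 family of primates. It was counted at 4.64, 5.59 and 3.84 CPM in control libraries and at 3.71, 3.42 and 3.11 CPM in exposed libraries. The groups did not overlap, but control replicate 3 and exposed replicate 1 were close. The gene fell from 4.69 ± 0.874 to 3.41 ± 0.302 CPM (n = 3), a log2 fold change of -0.46 ± 0.18 with an edgeR adjusted p of 0.044. This call was lost under 8 of 13 other settings, with adjusted p up to 0.23 when control replicate 2 was left out.

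**Figure D3:**
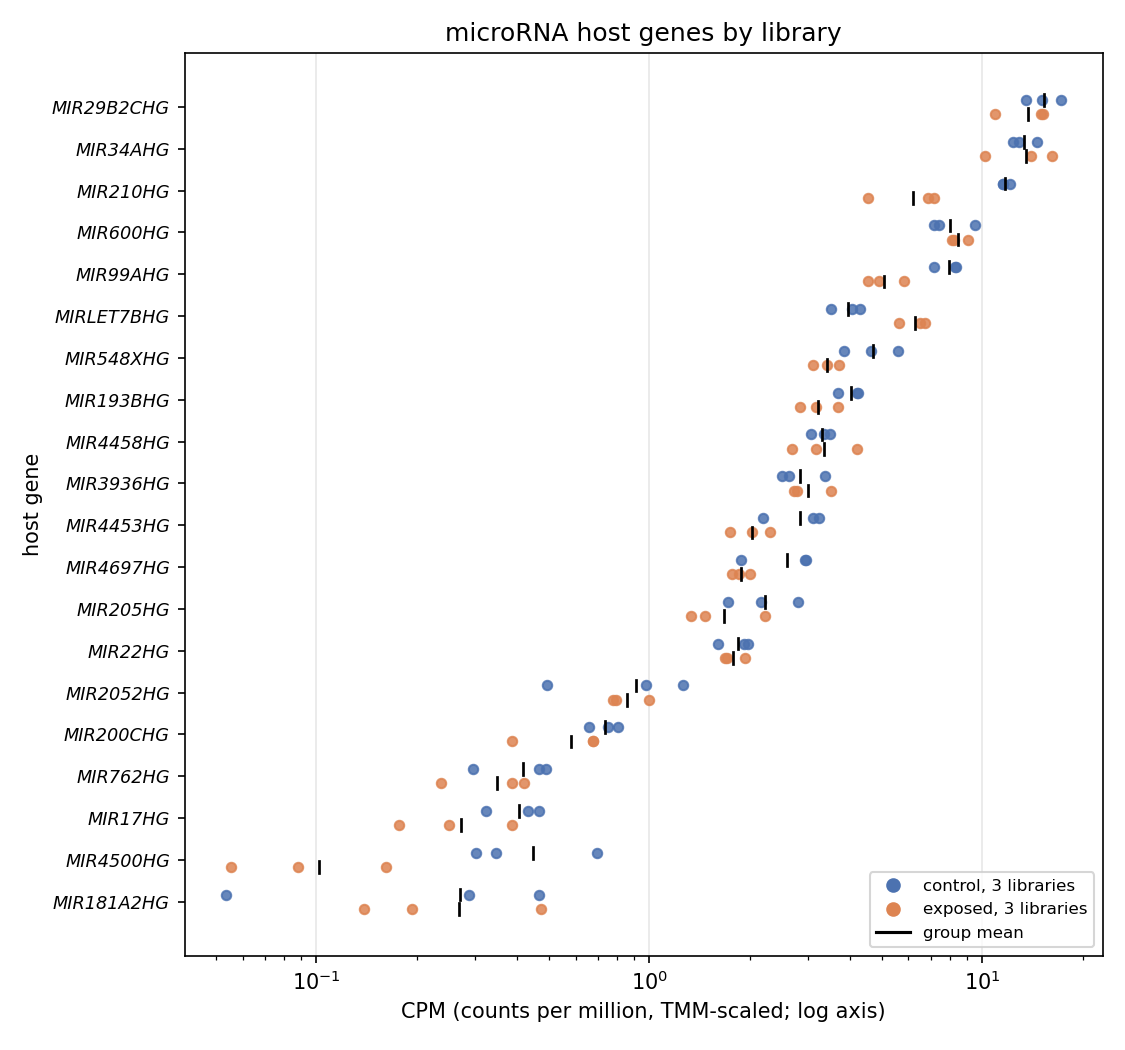
CPM of the 20 tested host genes in each library on a log axis, control and exposed libraries in separate colours, 1 point per library and a short line at each group mean. The exposed points of MIRLET7BHG (5.63 to 6.72 CPM) lie above its control points, those of MIR210HG (4.52 to 7.18 CPM) lie below, and most other genes have mixed points.

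The most abundant host genes did not pass the test. MIR29B2CHG, host of miR-29b and miR-29c, which target collagen and DNA methyltransferase genes, had 15.3 ± 1.89 CPM in control and 13.7 ± 2.43 CPM in exposed libraries (log2 fold change -0.16, edgeR adjusted p 0.33). MIR34AHG hosts miR-34a, a microRNA known to restrain cell cycle genes. It was counted at 14.6, 12.4 and 12.9 CPM in control libraries and at 14, 10.2 and 16.2 CPM in exposed libraries (log2 fold change 0.02 ± 0.13, edgeR adjusted p 0.90). The exposed libraries spread wider than the controls and enclosed them.

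MIR200CHG, MIR205HG and MIR193BHG were not called. MIR200CHG hosts miR-200c and miR-141, repressors of the mesenchymal regulators ZEB1 and ZEB2, and had 0.737 ± 0.0734 and 0.581 ± 0.167 CPM (log2 fold change -0.35, edgeR adjusted p 0.52). MIR205HG hosts miR-205, which is typical of basal epithelium, and had 2.23 ± 0.541 and 1.68 ± 0.483 CPM (-0.41, adjusted p 0.22). MIR193BHG, host of miR-193b and miR-365a, had 4.04 ± 0.314 and 3.22 ± 0.431 CPM (-0.33, adjusted p 0.16). ZEB1 and ZEB2 themselves were under the count filter, with 11 and 4 counts in all.

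MIR17HG, MIR22HG and MIR181A2HG were not called. MIR17HG, the MYC-induced host of the miR-17 cluster, held 12, 15 and 17 counts in control libraries and 6, 12 and 9 in exposed libraries, and the groups overlapped (log2 fold change -0.59 ± 0.53, edgeR adjusted p 0.39). MIR22HG, whose hairpin is exonic in all 19 annotated transcripts, had 1.84 ± 0.2 and 1.78 ± 0.138 CPM (-0.05, adjusted p 0.90). MIR181A2HG held 2, 10 and 17 counts against 16, 6 and 5, with an SE of 0.65, too wide for a direction.

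The other uncalled hosts carry less studied microRNAs. MIR600HG had 8.01 ± 1.28 CPM in control and 8.45 ± 0.515 in exposed libraries (log2 fold change 0.08), and MIR3936HG 2.84 ± 0.471 and 3.0 ± 0.452 (0.08). MIR4453HG, at 2.84 ± 0.572 and 2.03 ± 0.275 CPM, had a log2 fold change of -0.49 and an edgeR adjusted p of 0.082, and was called without control replicate 2 (adjusted p 0.030) and, just under the threshold, with libraries scaled by total counts. MIR4697HG, at 2.59 ± 0.62 and 1.88 ± 0.119 CPM, had -0.47 and 0.12, and was called without control replicate 1 (adjusted p 0.040). MIR2052HG and MIR762HG had log2 fold changes of -0.09 and -0.26, with SE of 0.38 and 0.51. Of the 15 uncalled hosts, 11 lay below 0.

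Divided by the exon length in the deposited table, MIR210HG had the highest level in both groups, 5.04 ± 0.148 CPM per kb in control and 2.67 ± 0.627 in exposed libraries. MIR548XHG followed at 3.23 ± 0.601 and 2.35 ± 0.208, MIR200CHG at 2.11 ± 0.21 and 1.66 ± 0.478, and MIR34AHG at 1.53 ± 0.13 and 1.55 ± 0.347 CPM per kb. In control libraries each step of this order exceeded the summed SDs of the pair. In exposed libraries MIR210HG and MIR548XHG did not differ beyond them, nor did MIR200CHG and MIR34AHG. The table's length equals the union of GENCODE 29 exons for all 55 genes.

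Among the 16 host genes under the filter, MIR646HG held 4, 4 and 4 counts in control and 12, 14 and 2 in exposed libraries, with exposed replicate 3 below the controls. MIR3142HG, whose span includes the NF-kB-induced miR-146a, held 8, 8 and 10 counts in control and 2, 2 and 4 in exposed libraries. Its groups did not overlap, as for 51.9% of all tested genes, and with so few counts it was not tested. MIR181A1HG, MIR497HG and MIR663AHG held 18, 16 and 14 counts in all, and the groups of MIR497HG did not overlap in CPM either. The other 11 held at most 6 counts, among them MIR155HG with 2 and MIR31HG with 4, the latter all in exposed replicate 3. The 19 without a count included MIR222HG and MIR503HG, the liver host MIR122HG, the muscle host MIR133A1HG and the neural host MIR137HG, and all 3 hosts on the X chromosome were among them.

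The rows of the hairpins themselves held few counts. The table has 84 microRNA rows inside 53 of the hosts on the host's strand, 27 of them in an exon of at least 1 transcript, 56 in introns only and 1 in neither. Of the 84, 71 had no count and 13 shared 151 counts, against 17348 counts over the hosts. None of the 27 exonic rows had a count, and all 13 with counts were intronic. MIR22, exonic in all 19 transcripts, had 0 counts beside 378 for its host. How the counting assigned a read that lies in both a hairpin row and a host exon is not given, so a 0 there need not mean that no read covered the hairpin. MIR3936 was the only one tested, with 19, 10 and 9 counts against 12, 11 and 16 (log2 fold change 0.14, edgeR adjusted p 0.85).

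Neighbouring genes were read beside the hosts, since the strand setting of the counting is not given and reads of overlapping genes cannot be told apart. MIRLET7BHG overlaps PRR34-AS1 on the same strand at its start, and that gene fell, from 1.01 ± 0.343 to 0.451 ± 0.112 CPM (log2 fold change -1.15, edgeR adjusted p 0.022). PRR34 and AL121672.1, which overlap it on the other strand, had log2 fold changes of -0.75 and -1.06 and were not called (adjusted p 0.14 and 0.12). Upstream of MIRLET7BHG, LINC00899 fell from 8.26 to 5.04 CPM (adjusted p 0.00019), and on its other side PPARA was not called (-0.01). No tested gene overlapped MIR210HG, and its neighbours RASSF7, 1.64 kb away, and PHRF1, 8.03 kb away, were not called (adjusted p 0.99 and 0.16).

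USP25, 48.2 kb from MIR99AHG, rose from 24.4 ± 3.3 to 34.4 ± 2.77 CPM (0.50, adjusted p 0.00017) while the host fell. SLITRK5, 1.36 kb from MIR4500HG, rose from 24.9 ± 1.86 to 29.9 ± 0.637 CPM (0.26, adjusted p 0.023). PPIAP22, 97.8 kb from MIR548XHG, was not called (-0.09). Among genes that overlap uncalled hosts, LNCTAM34A, on the opposite strand of MIR34AHG, fell from 0.926 ± 0.172 to 0.429 ± 0.177 CPM (-1.11, adjusted p 0.033). WDR81 over MIR22HG rose (0.48) and NR6A1 over MIR181A2HG fell (-0.38), both on the strand opposite the host. STRBP, which covers MIR600HG on the same strand, had 48.4 ± 2.34 and 54.6 ± 0.766 CPM and was not called (0.18, adjusted p 0.079). SLC22A5 and SLC22A4 over MIR3936HG (-0.06 and -0.68), AC115837.1 over MIR2052HG (0.82) and BCL7C over MIR762HG (-0.22) were not called.

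The genes that process microRNAs fell more often than they rose: of 41 tested in 4 lists, 2 were higher and 20 lower. That is 53.7% called and a median log2 fold change of -0.19, beside 43.9% and -0.02 over all tested genes. Most of the 41 were more abundant than the most abundant host (mean 14.5 CPM). Among tested genes up to that level 32.8% were called, so above it the share exceeded 43.9%. Of the 7610 genes called among all 17337 tested, only 2968 were among the 9049 up to that level. The 53.7% is therefore not shown to exceed the share called among genes of like level. In the nuclear step 8 of 11 fell (72.7%, against 22.1% lower among all tested genes) and none rose. DGCR8, the RNA-binding partner of Drosha, was counted at 18.6, 18.8 and 19 CPM in control and at 9.92, 12.2 and 8.12 CPM in exposed libraries, with no overlap (log2 fold change -0.90 ± 0.12, edgeR adjusted p 5e-07). DROSHA fell from 62.4 ± 6.02 to 51.2 ± 0.278 CPM (-0.29, adjusted p 0.006), a call lost without control replicate 1 (adjusted p 0.058). SRSF3, which binds primary transcripts beside the hairpin, fell by 1.09 on the log2 scale, SRRT (ARS2) by 0.93 and the helicase DDX5 by 0.72.

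In export and dicing 1 of 5 genes rose and 1 fell (40% called, near the 43.9% of all tested genes). PRKRA (PACT), a Dicer partner, rose (0.55, adjusted p 1.1e-05). RAN, the GTPase used by exportin-5, fell (-0.26, adjusted p 0.01), a call lost without exposed replicate 2 or 3 (adjusted p 0.063 and 0.086). XPO5, at 86.0 ± 5.33 and 81.4 ± 2.84 CPM, and DICER1, at 57.4 ± 3.63 and 50.3 ± 4.85 CPM, were not called (adjusted p 0.43 and 0.074). TARBP2, another Dicer partner, had a log2 fold change of -0.18 and was not called. DICER1 and TARBP2 were each called lower under 2 of 13 other settings.

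Of 15 Argonaute and silencing genes 8 fell (53.3%, against 22.1% lower among all tested genes) and none rose. AGO2, the Argonaute that can slice its target, fell from 126 ± 9.05 to 104 ± 8.14 CPM (-0.29, adjusted p 0.0036). The helicase MOV10 fell by 0.78 on the log2 scale, the chaperone HSP90AA1 by 0.49, AGO1 by 0.46 and the Argonaute partner TNRC6A by 0.38. Of 10 tested tailing and turnover genes 1 rose and 3 fell, a share near that of all tested genes (40% against 43.9% called). LIN28A, whose protein blocks maturation of let-7 precursors, was counted at 22.8, 27.4 and 27.2 CPM in control and at 10.5, 12.9 and 12.5 CPM in exposed libraries, so all exposed libraries were lower (-1.11 ± 0.11, adjusted p 1e-09). LIN28B had no count. ZSWIM8, which directs target-dependent microRNA decay, rose (0.52, adjusted p 8.1e-07), while the nucleases PARN (-0.32) and PNPT1 (-0.30) fell. The PARN call was lost without exposed replicate 1 (adjusted p 0.079) and the PNPT1 call under 4 of 13 other settings.

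Of 14 tested transcription factors known as regulators of host genes, 7 rose and 4 fell (78.6% called, against 43.9% of all tested genes, of which 21.8% were higher and 22.1% lower). These shares are not matched for level either: most of the 14 were more abundant than the most abundant host (mean 14.5 CPM). Above that level more than 43.9% of tested genes were called. HIF1A, a known inducer of MIR210HG, was counted at 60.4, 55.8 and 60.9 CPM in control and at 84.3, 100 and 88.5 CPM in exposed libraries, all of them higher (0.62, adjusted p 1.7e-07). EPAS1, the other main hypoxia-inducible factor, rose from 55.7 ± 1.72 to 98.3 ± 1.41 CPM (0.82, adjusted p 2e-10), so the RNA of both factors rose where that of MIR210HG fell. MYC, known to induce MIR17HG and to repress let-7 hosts, fell from 40.7 ± 3.06 to 9.18 ± 1.83 CPM (-2.15, adjusted p 6.5e-16). ESR1, the estrogen receptor, fell from 167 ± 12.2 to 67.1 ± 3.45 CPM.

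AHR, the receptor of aromatic hydrocarbons, rose from 9.30 ± 0.988 to 13.4 ± 1.13 CPM (0.53, adjusted p 0.00087), and NFE2L2, which drives antioxidant genes, rose from 27.3 ± 2.82 to 45.9 ± 3.38 CPM (0.75). These are RNA levels, and the activity of the factors was not measured.

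Promoter sequence was available in RefSeq for 41 of the 55 host genes, 250 bases before to 50 after the start site. On either strand, the core of the xenobiotic response element bound by the AhR complex, GCGTG, was found in 14 of the 41, and in 36.5% of all 35116 promoters of that length. The hypoxia response core ACGTG was found in 12 (21.4% of all), the E-box CACGTG, which contains ACGTG, in 0 (7.26%) and the antioxidant response core TGACNNNGC in 7 (13.3%). Of the called hosts, MIR210HG and MIRLET7BHG held the GCGTG core, MIR99AHG and MIR4500HG held none of the 4 motifs, and MIR548XHG had no entry. The core was not particular to called hosts. It was found in 7 of the 16 tested hosts with an entry, also in the uncalled MIR34AHG, MIR4458HG, MIR3936HG, MIR22HG and MIR762HG. The 2 called hosts that held it are shown because they lie on opposite sides of the comparison. GCGTG, or CACGC where it reads on the other strand, is in capitals.
MIR210HG promoter, GRCh38.p14, chr11:568408-568707, minus strand: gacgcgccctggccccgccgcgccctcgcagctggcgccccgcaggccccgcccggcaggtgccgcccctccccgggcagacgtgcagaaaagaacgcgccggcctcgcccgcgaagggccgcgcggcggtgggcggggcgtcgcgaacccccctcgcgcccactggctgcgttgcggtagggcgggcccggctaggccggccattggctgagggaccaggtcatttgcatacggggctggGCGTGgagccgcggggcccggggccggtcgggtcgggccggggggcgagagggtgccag
MIRLET7BHG promoter, GRCh38.p14, chr22:46085747-46086046, plus strand: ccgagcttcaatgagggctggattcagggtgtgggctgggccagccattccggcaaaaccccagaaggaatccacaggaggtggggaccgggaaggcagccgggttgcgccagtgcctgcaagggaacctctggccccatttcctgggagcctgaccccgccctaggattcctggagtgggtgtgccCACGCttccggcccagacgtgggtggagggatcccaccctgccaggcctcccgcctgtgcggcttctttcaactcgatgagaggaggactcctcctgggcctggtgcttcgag
Both windows also held ACGTG, and that of MIRLET7BHG held TGACNNNGC. The RefSeq starts of MIRLET7BHG and MIR99AHG lie 32.1 and 142 kb inside the genes as the table gives them. Those of the uncalled MIR29B2CHG, MIR34AHG and MIR4458HG lie 56.4, 16.6 and 6.94 kb inside. None of these windows is therefore at the outermost annotated start. A match of letters is a description and shows no binding.

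**Figure D4:**
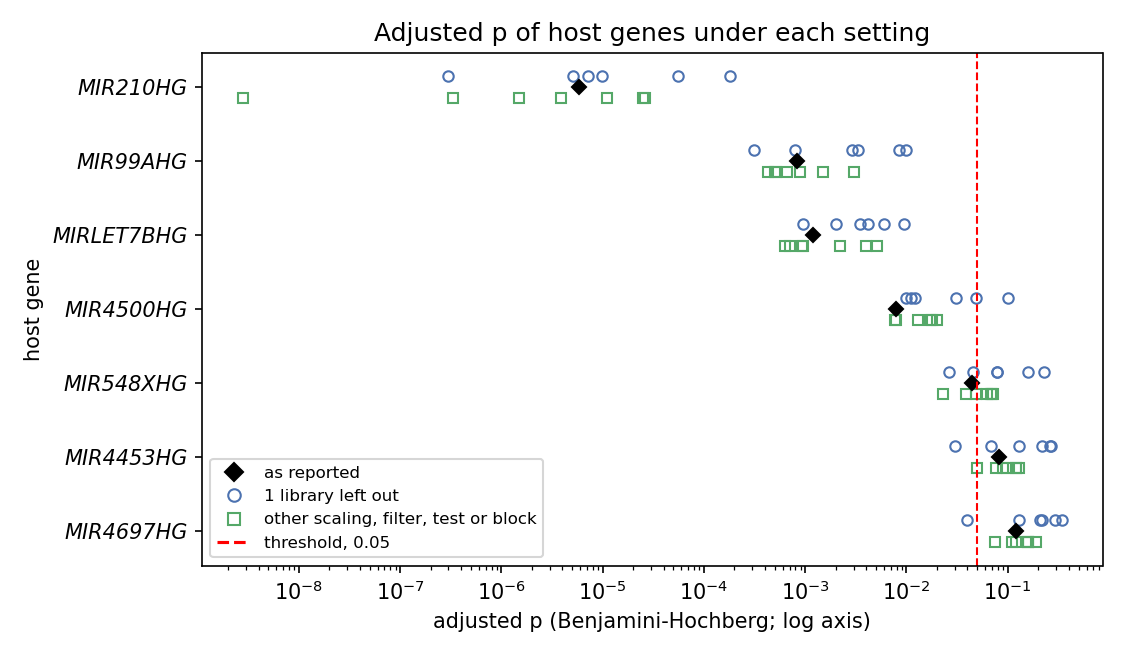
Adjusted p (log axis) of the 5 called host genes and of MIR4453HG and MIR4697HG, as reported (diamonds), with 1 library left out (circles) and under another scaling, filter, test or block (squares), with the threshold of 0.05 as a dashed line. All points of MIR210HG, MIR99AHG and MIRLET7BHG lie under the line, MIR4500HG has 1 point above it at 0.10, MIR548XHG has 8 above it, up to 0.23, and the reported values of MIR4453HG and MIR4697HG lie above it.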

How the data were processed

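RNA of 3 control and 3 exposed T47D samples was extracted with TRIzol, made into NEBNext Ultra libraries and sequenced on a NovaSeq instrument, per the labels' protocols. The deposited table gives whole-number read counts per gene from the authors, on GRCh38 per the submitters' processing notes, and a gene length in bases. The aligner, counting tool, strand setting and annotation were not stated in the sources used. All 58735 gene IDs matched GENCODE 29 coordinates.

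Counts were fitted in R 4.3.3 with edgeR 4.0.16: 17337 genes passed filterByExpr (a minimum count of 10 and a total of 15), the 6 libraries were scaled by TMM, and exposed was compared with control by the robust quasi-likelihood test, with Benjamini-Hochberg adjustment over all tested genes and a threshold of 0.05. The fit was tested on simulated data with changes planted only in well-counted genes, so that test does not cover the scarcest hosts. CPM uses TMM-scaled library sizes and errors are SDs over libraries. Groups came from sample titles. No libraries of a group were duplicates (chi-square over degrees of freedom, 5.59 to 11.1). Depth was 30970218 to 36878525 counts per library.

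Every host gene is accounted for. Of the other lists the text names 10 genes whatever their result and up to 4 per list with the smallest adjusted p, and of neighbours the overlapping tested genes and the nearest tested gene on each side within 100 kb. A gene that the rule takes is not reported here. ZEB1, ZEB2, LIN28B and the hosts in the observations other than those of that rule were added after their values were seen. The genes and lists were chosen with earlier results of these data known. Alternatives were other size factors, total counts, filters, DESeq2 1.42.0, limma 3.58.1 (voom), a replicate block and leaving out each library.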

Additional observations from a re-analysis of the deposited data

How the results depend on the processing

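Leaving out 1 library gave 1 to 2 host genes higher (2 without exposed replicate 3, the second being MIR646HG with an adjusted p of 0.042) and 3 to 4 lower. DESeq2, voom, the replicate block, no filter and a minimum of 1 CPM each gave 3 lower, and total counts 5. The 3 were not always the same genes. A minimum of 1 CPM left MIR4500HG untested and kept MIR548XHG (edgeR adjusted p 0.039). With DESeq2, voom, the replicate block or no filter MIR548XHG was lost and MIR4500HG kept. MIR210HG, MIR99AHG and MIRLET7BHG were called under all 13 settings. The numbers do not pair the samples (deviations of same-numbered libraries correlated at -0.074, -0.080 and 0.0055), and with the replicate block 18 processing genes were lower. Without 1 library 15 to 23 processing genes were lower, and with total counts 25, beside 2 higher in each case. Some uncalled hosts changed sign. With total counts MIR34AHG and MIR4458HG were at -0.05. With voom MIR2052HG was at 0.01 and MIR181A2HG at 0.24, and MIR181A2HG was at 0.01 with other size factors and with DESeq2, 0.0035 with no filter and 0.04 with the replicate block. Leaving out 1 library moved MIR34AHG between -0.11 and 0.19, MIR4458HG between -0.16 and 0.17, MIR3936HG between -0.04 and 0.22, MIR22HG between -0.13 and 0.01, MIR2052HG between -0.38 and 0.22 and MIR181A2HG between -0.68 and 0.66. The cause was not tested. Scaling by total counts put the median of all genes at -0.09. Hosts under about 100 counts had SEs above 0.4, which limits what their fold changes can show.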

Other observations

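MicroRNA hosts outside the naming rule were read from a list of 38 genes, of which 36 hold a microRNA row on their strand. Of 33 tested, 6 were higher and 13 lower (57.6% called, median log2 fold change -0.12). Among all tested genes 43.9% were called, 21.8% higher and 22.1% lower. These shares are not matched for level: most of the 33 were more abundant than the most abundant host of the rule (mean 14.5 CPM). Up to that level 32.8% of tested genes were called, so above it the share exceeded 43.9%, and the 57.6% is not read as an excess. DALRD3, host of miR-191 and miR-425, rose from 34.6 ± 2.15 to 70.4 ± 2.47 CPM (1.03, edgeR adjusted p 9.8e-12), and SREBF2, host of miR-33a, rose from 284 ± 6.02 to 390 ± 12.8 CPM (0.46, adjusted p 5.2e-06). ARRB1, host of miR-326, fell by 0.72 on the log2 scale and SKA2, host of miR-301a and miR-454, by 0.78.

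Other let-7 hairpins lie in genes with other names, which were looked up after the values above were seen. HUWE1, which carries MIR98 and MIRLET7F2, had 564 ± 47.4 and 560 ± 53.3 CPM, and WDR82, which carries MIRLET7G, had 95.9 ± 3.65 and 94.9 ± 4.92 CPM, neither called. SPACA6, over MIRLET7E, was not called (-0.23, adjusted p 0.46). AC048341.1, over MIRLET7I, held 24, 19 and 23 counts in control and 2, 10 and 10 in exposed libraries and fell (-1.46 ± 0.54, edgeR adjusted p 0.027). AL158152.2, over MIRLET7A1, MIRLET7D and MIRLET7F1, was under the filter with 1, 0 and 0 counts in control and 8, 2 and 4 in exposed libraries.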
